A study of Homo sapiens with 7 samples.

Results

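The galectins measured here are 7 genes, LGALS1, LGALS2, LGALS3, LGALS4, LGALS8, LGALS9 and LGALS3BP, out of 33117 gene identifiers (32425 symbols) listed for each library. They were chosen by family membership and because LGALS3 had one of the largest rises in Lat-M1 cells, so the choice used measured values of the Lat-M1 against PA contrast. The cells were of the established line 769-P, derived from a human clear cell carcinoma of the kidney, and all were grown in RPMI medium with 10% fetal bovine serum. RNA sequencing covered 3 libraries of PA cells, an abbreviation the labels leave unexpanded, 2 libraries labelled Lat-M1 and 2 labelled Lat-M2. Lat-M stands for latent metastatic. What the first number after it denotes is not explained, and the labels name no added allele, gene or drug in any group. Whether libraries of a group came from separate cultures is not stated, so p-values cover the spread among libraries alone, and that spread may be technical. The kit was TruSeq RNA v2 for some libraries and NEBNext Ultra for others, and since no source used here says which, kit and group cannot be told apart. Levels are given in TPM, a measure of transcript abundance that accounts for transcript length and has the same sum in each library.

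Galectins are lectins that bind beta-galactoside sugars on glycoproteins and glycolipids. They are made in the cytosol and leave the cell without a signal peptide, so they act inside the cell and, once outside, crosslink glycoproteins on the surface and in the matrix. LGALS1 and LGALS2 encode prototype galectins with a single sugar-binding domain, LGALS4, LGALS8 and LGALS9 encode tandem-repeat galectins with a pair of such domains, and LGALS3 encodes the chimera galectin, whose tail lets it form oligomers. LGALS3BP encodes a secreted glycoprotein ligand of galectins and is not a lectin of the family itself. In the kidney, galectin-3 and galectin-1 are known from tubular cells, injury and carcinoma.

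LGALS3 was read in Lat-M1 and almost nowhere else. It was read at 0 TPM in PA-1, 0 in PA-2 and 0.0372 in PA-3, at 28.4 in Lat-M1-1 and 30.8 in Lat-M1-2, and at 0 in both Lat-M2 libraries (ENSG00000131981.11). Both Lat-M1 libraries thus stood far above all 5 others, and the PA and Lat-M2 libraries overlapped at 0. On the log2(TPM + 1) scale the difference between Lat-M1 and PA was 4.92 ± 0.13 (SE, n = 2 and 3), the fifth highest of the 16724 genes tested, given here as a description because this contrast chose the gene. The size depended on the constant added before the logarithm, and with 0.1 in place of 1 it was 8.06. Between Lat-M2 and Lat-M1 the difference was -4.93 ± 0.15, and no fold is given against groups listed at 0. None of 69 ribosomal protein genes was at 0 in any library. Only abundant ones were counted, so this does not show whether genes at lower levels were missed. These are bulk values, so a level can come from all cells or from a part of them, and fewer cells with a transcript cannot be told apart from less transcript per cell.

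The promoter of LGALS3 and those of LGALS2 and LGALS4, the members that were low where LGALS3 was high, are shown because the results turn on these genes. Each sequence is the 250 bases before the annotated start, 5′ to 3′ on the gene's strand, from RefSeq (GRCh38.p14), and capitals mark CpG dinucleotides. The positions are chr14:55129002-55129251 on the plus strand for LGALS3, chr22:37580088-37580337 on the minus strand for LGALS2 and chr19:38812946-38813195 on the minus strand for LGALS4.
LGALS3: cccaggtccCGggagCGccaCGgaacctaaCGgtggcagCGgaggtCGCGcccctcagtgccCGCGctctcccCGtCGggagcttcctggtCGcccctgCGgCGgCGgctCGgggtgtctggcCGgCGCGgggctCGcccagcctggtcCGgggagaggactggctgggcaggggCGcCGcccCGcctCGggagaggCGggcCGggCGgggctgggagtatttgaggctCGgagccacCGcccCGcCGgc
LGALS2: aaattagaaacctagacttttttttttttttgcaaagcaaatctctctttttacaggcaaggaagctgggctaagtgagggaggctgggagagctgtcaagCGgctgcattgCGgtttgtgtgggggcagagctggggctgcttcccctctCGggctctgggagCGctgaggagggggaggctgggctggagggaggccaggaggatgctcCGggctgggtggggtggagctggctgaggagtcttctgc
LGALS4: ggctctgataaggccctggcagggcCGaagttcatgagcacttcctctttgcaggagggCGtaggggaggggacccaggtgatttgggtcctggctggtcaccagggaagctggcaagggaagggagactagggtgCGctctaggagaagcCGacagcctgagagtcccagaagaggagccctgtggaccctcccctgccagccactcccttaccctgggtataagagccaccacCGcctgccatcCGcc
The LGALS3 window holds 32 CpG and is 78.8% G or C, more CpG than 90.5% of the 35116 promoters in the table, whose median is 11. The LGALS2 window holds 5 CpG (58% G or C) and the LGALS4 window 6 (63.2%). Among the other members with an entry, LGALS3BP had 4, LGALS9 had 1, and the LGALS8 entries had 2, 14 and 21. The LGALS3 window holds 3 matches to the GC box GGGCGG on either strand, a motif that 42.6% of all promoters of that length hold and that itself contains a CpG. Neither the LGALS2 nor the LGALS4 window matches it, nor TATAAA (10.7% of promoters), TTCNNNGAA (6.57%), TGTGGT (11%) or GTTAAT (6.23%), searched on both strands. Only exact letters were counted, and the LGALS4 window holds tataag near its end. These are letter matches in a window, and no binding or methylation was measured.

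**Figure D1:**
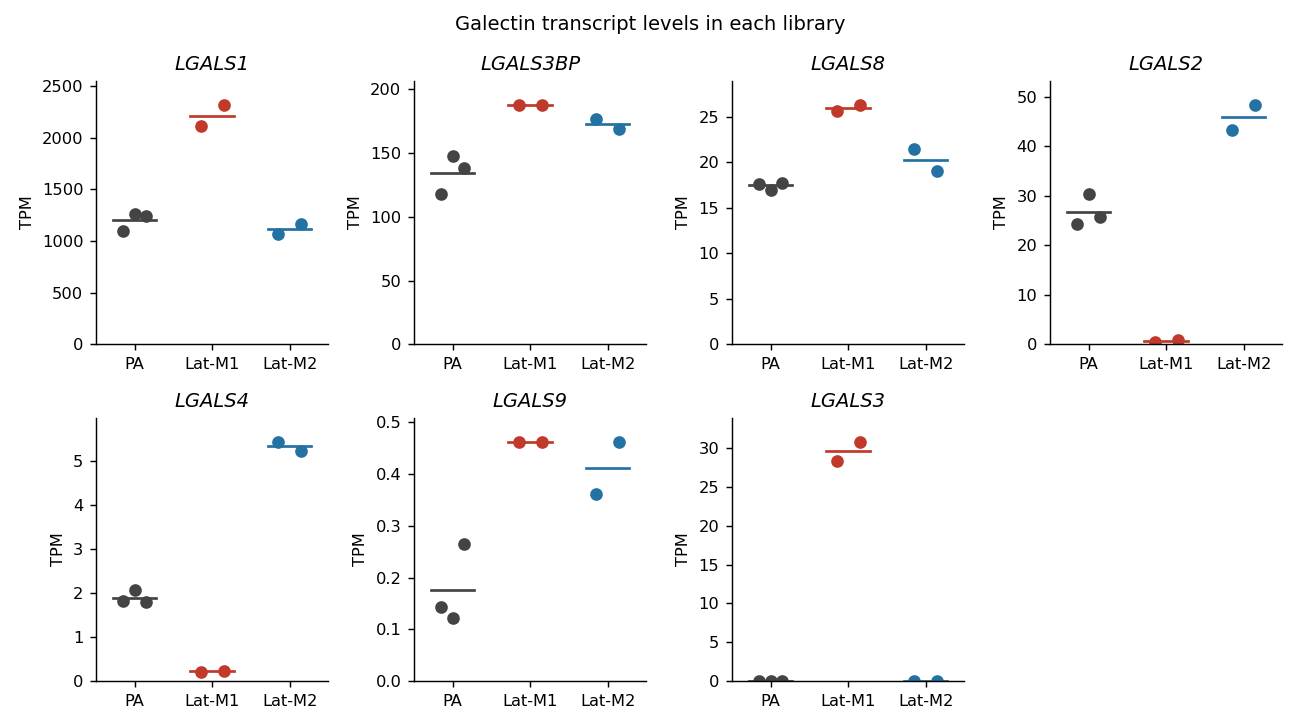
TPM (y axis, linear from 0, a separate scale per gene) of the 7 genes in each library of PA (grey), Lat-M1 (red) and Lat-M2 (blue), with points for libraries and lines for group means. LGALS3 is at 28.4 and 30.8 TPM in Lat-M1 and at or near 0 elsewhere, while LGALS2 and LGALS4 are lowest in Lat-M1 and highest in Lat-M2.

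Of the prototype galectins, LGALS1 was by far the most abundant member in every library. Its levels (ENSG00000100097.7) were 1095, 1263 and 1245 TPM in PA, 2114 and 2319 in Lat-M1, and 1067 and 1166 in Lat-M2. Both Lat-M1 libraries lay above all others, and the PA and Lat-M2 libraries overlapped. The gene ranked between 39 and 48 by TPM among all listed genes in PA, between 21 and 24 in Lat-M1, and between 48 and 58 in Lat-M2. The mean in Lat-M1 was 1.85 times that in PA, a log2 difference of 0.89 ± 0.084. LGALS1 was lower in Lat-M2 than in Lat-M1 by a log2 difference of -0.99 ± 0.092 (limma, adjusted p = 0.00023). Against PA, the Lat-M2 difference was -0.10 ± 0.084 with a 95% interval from -0.30 to 0.094 (adjusted p = 0.428).

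LGALS2, the other prototype galectin and in healthy tissue mostly a gene of the gut epithelium, went the other way. Its levels (ENSG00000100079.5) were 24.3, 30.4 and 25.7 TPM in PA, 0.456 and 0.83 in Lat-M1, and 43.4 and 48.4 in Lat-M2. The groups did not overlap, with Lat-M1 near 0 and both Lat-M2 libraries above every PA library. In Lat-M1 the mean was 41.7 times lower than in PA, a log2 difference of -4.08 ± 0.13 and the 18th lowest of all tested genes. LGALS2 rose in Lat-M2 relative to PA, 1.71-fold, with a log2 difference of 0.76 ± 0.13 (adjusted p = 0.0143). That call was lost with the added constant of 0.1 (adjusted p = 0.0641) and without Lat-M2-1 (0.0734) or Lat-M2-2 (0.0502). The difference between Lat-M2 and Lat-M1 was 4.84 ± 0.14, a ratio of means of 71.4 (adjusted p = 1.2e-06) and the seventh highest of all genes in that comparison.

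Among the tandem-repeat galectins, LGALS4, also typical of gut epithelium, followed LGALS2 at a lower level. It stood (ENSG00000171747.4) at 1.83, 2.07 and 1.78 TPM in PA, 0.214 and 0.222 in Lat-M1, and 5.43 and 5.23 in Lat-M2. No library of any group came within the range of another group. The mean was 8.69 times lower in Lat-M1 than in PA (log2 difference -1.25 ± 0.13). LGALS4 rose 2.82-fold in Lat-M2 over PA, with a log2 difference of 1.13 ± 0.13 (adjusted p = 0.00361), and was 24.5 times higher in Lat-M2 than in Lat-M1 (2.38 ± 0.14, adjusted p = 2.9e-05). At these low levels the added constant of 1 makes log2 differences smaller than the logarithm of the ratio. The ratio of LGALS2 to LGALS4, computed after their values were seen, was 13.3, 14.7 and 14.4 in PA, 2.13 and 3.74 in Lat-M1, and 7.98 and 9.25 in Lat-M2. The pair therefore moved in the same directions but not by the same factor.

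LGALS8, whose product marks damaged endosomes and lysosomes, differed less. It was read (ENSG00000116977.14) at 17.6, 17 and 17.8 TPM in PA, 25.7 and 26.3 in Lat-M1, and 21.5 and 19.1 in Lat-M2. The groups did not overlap, and Lat-M2 lay between the others. Lat-M1 was 1.49 times PA (log2 difference 0.55 ± 0.067), and Lat-M2 was lower than Lat-M1 by -0.34 ± 0.073 (adjusted p = 0.00965; 0.0624 without Lat-M1-2). For Lat-M2 against PA the difference of 0.20 ± 0.067 did not pass the test (95% interval 0.046 to 0.36, adjusted p = 0.0831), and it did without Lat-M2-2 (0.28, adjusted p = 0.0323). The antisense gene LGALS8-AS1 was listed at 0.285 to 1.09 TPM over the 7 libraries, and whether counting used the strand is not stated, so reads of the pair cannot be told apart.

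LGALS9, an interferon-responsive galectin best known as a ligand of HAVCR2, was barely read. Its levels (ENSG00000168961.12) were 0.144, 0.122 and 0.264 TPM in PA, 0.461 and 0.463 in Lat-M1, and 0.362 and 0.463 in Lat-M2. All 4 Lat-M libraries lay above the PA libraries, and the Lat-M groups met at the top. Its mean of 0.326 TPM over all libraries was under the minimum of 1 TPM for testing, so it had no test, and with no minimum the Lat-M2 against PA difference was 0.26 ± 0.092 (adjusted p = 0.181). Reads of LGALS9 may be shared with its near copy LGALS9B, which was listed at no more than 0.0353 TPM.

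LGALS3BP, the secreted galectin ligand, was the second most abundant member in every library. It stood (ENSG00000108679.8) at 118, 147 and 138 TPM in PA, 187.8 and 187.6 in Lat-M1, and 177 and 169 in Lat-M2. Every Lat-M library exceeded every PA library, although PA-1 lay well under the other PA libraries. Lat-M1 was 1.40 times PA (log2 difference 0.48 ± 0.093). LGALS3BP rose 1.29-fold in Lat-M2 over PA, with a log2 difference of 0.37 ± 0.093 (adjusted p = 0.0411). That call ended when libraries were scaled by median ratios (0.22, adjusted p = 0.16) and, among others, without each library in turn except PA-2 (adjusted p from 0.0606 to 0.2). Lat-M2 and Lat-M1 differed by -0.12 ± 0.10, with a 95% interval from -0.36 to 0.12 (adjusted p = 0.414).

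In PA and in Lat-M2 the order of levels was LGALS1, LGALS3BP, LGALS2, LGALS8, LGALS4, LGALS9 and LGALS3, and no neighbours in it overlapped between libraries of the group. In Lat-M1 the order was LGALS1, LGALS3BP, LGALS3, LGALS8, LGALS2, LGALS9 and LGALS4, where LGALS2 and LGALS9 overlapped and all other neighbours were apart. The 7 genes summed to 1256, 1460 and 1429 TPM in PA, 2357 and 2565 in Lat-M1, and 1315 and 1408 in Lat-M2. LGALS1 made up 86.5% to 87.2% of that sum in PA, 89.7% to 90.4% in Lat-M1 and 81.2% to 82.8% in Lat-M2. LGALS3 contributed 1.20% in each Lat-M1 library, and LGALS1 was 74.5 and 75.2 times more abundant there. On average LGALS1 stood at 1201 TPM of a sum of 1382 in PA and at 2216 of 2461 in Lat-M1. The share of LGALS3BP was 9.38% to 10.1% in PA, 7.31% to 7.97% in Lat-M1 and 12% to 13.5% in Lat-M2, and that of LGALS2 was 1.80% to 2.09%, 0.0193% to 0.0324% and 3.30% to 3.44%.

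Read as counts, 6 of the 7 members reached the mean of 1 TPM needed for a test, LGALS3 through its Lat-M1 libraries alone. In Lat-M1 against PA, all 6 passed the threshold, 4 higher and 2 lower. Of all tested genes 44.8% passed in that comparison, 33.2% higher and 11.6% lower, and since it chose the members nothing is read from their count. In Lat-M2 against PA, 3 of 6 passed, all higher (LGALS2, LGALS4 and LGALS3BP), against 14.9% of all genes (12.7% higher, 2.24% lower). The count stayed at 3 with protein-coding genes alone and without PA-2. It was 2 with median ratio scaling, the added constant of 0.1, no minimum TPM or only the groups compared. Without PA-1 or PA-3 it was also 2. In Lat-M2 against Lat-M1, 4 of the 5 members other than LGALS3 passed, LGALS2 and LGALS4 higher and LGALS1 and LGALS8 lower. The share of all genes in that comparison was 36% (16% higher, 20.1% lower). The comparisons share libraries and are not independent of each other.

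The median log2 difference of all tested genes was itself off 0, at 0.16 for Lat-M1 against PA and 0.14 for Lat-M2 against PA, and -0.011 for Lat-M2 against Lat-M1. Beside it, 4 abundant structural RNAs (RN7SL1, RN7SL2, RN7SK and RMRP) took 29.5% to 31.8% of TPM in PA, 18.6% to 21.9% in Lat-M1 and 22.9% to 27.7% in Lat-M2. With these 4 RNAs left out and TPM rescaled, the medians over 17755 tested genes were -0.015, 0.046 and 0.076 in the same order. What lay behind the shift was not tested further. In TPM as deposited, the medians of the tested members were 0.52, 0.29 and -0.12 in the same order of comparisons. When each library was scaled by its median ratio to the others, the Lat-M1 differences became 4.83 for LGALS3, 0.71 for LGALS1, 0.38 for LGALS8, 0.31 for LGALS3BP, -1.32 for LGALS4 and -4.21 for LGALS2. The Lat-M2 differences from PA became 1.02 for LGALS4 (adjusted p = 0.00377), 0.61 for LGALS2 (0.0382), 0.061 for LGALS8 (0.337) and -0.25 for LGALS1 (0.113). No member changed its direction. Over all genes the scaling moved the higher share of calls from 74.1% to 51% in Lat-M1 against PA, from 85% to 48.3% in Lat-M2 against PA, and from 44.3% to 49.5% in Lat-M2 against Lat-M1.

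**Figure D2:**
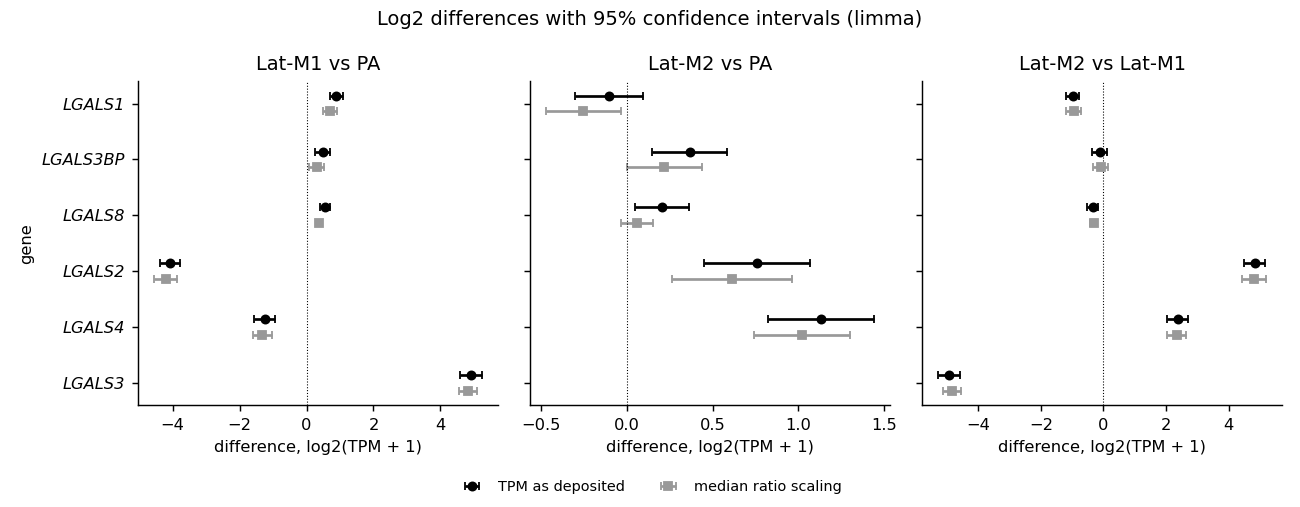
Log2(TPM + 1) differences (x axis, a separate scale per panel) of the tested galectins (y axis) in 3 comparisons, with 95% confidence intervals from limma, for TPM as deposited (black circles) and after median ratio scaling (grey squares). LGALS2 and LGALS4 lie left of 0 in Lat-M1 and right of 0 in Lat-M2 relative to PA, and LGALS3 is left out of the middle panel because it is at or near 0 in both groups.

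The genes whose profile over the 7 libraries was nearest to that of LGALS3, by Euclidean distance of log2(TPM + 1) with the PA mean taken off among 16384 other tested genes, were PHGDH, RBMS3, NDN, RP11-453F18__B.1 and GYPC. PHGDH, the first enzyme of serine synthesis, was nearest at a distance of 0.213. It was read at 0.0366, 0.155 and 0.0791 TPM in PA, 31 and 30.7 in Lat-M1, and 0 and 0.0181 in Lat-M2. RBMS3 stood at 21.2 and 21.6 TPM in Lat-M1, NDN at 48.5 and 49, RP11-453F18__B.1 at 21.1 and 23.7, and GYPC at 18.8 and 20. All were at or below 0.236 TPM in every PA and Lat-M2 library. For LGALS1 the nearest were CD151, a tetraspanin, at a distance of 0.116, then PISD, LIF, F2RL1 and PLEKHO2. CD151 averaged 157 TPM in PA, against 284 in Lat-M1 and 152 in Lat-M2. For LGALS2, added after the values were seen, they were CLRN3, SYT13, SUCNR1, GPR35 and CHCHD10, which averaged 14.1 to 24.6 TPM in PA, 0.0969 to 0.321 in Lat-M1 and 22.7 to 40.6 in Lat-M2. Likeness here rests on 7 libraries in 3 groups and is a description.

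**Figure D3:**
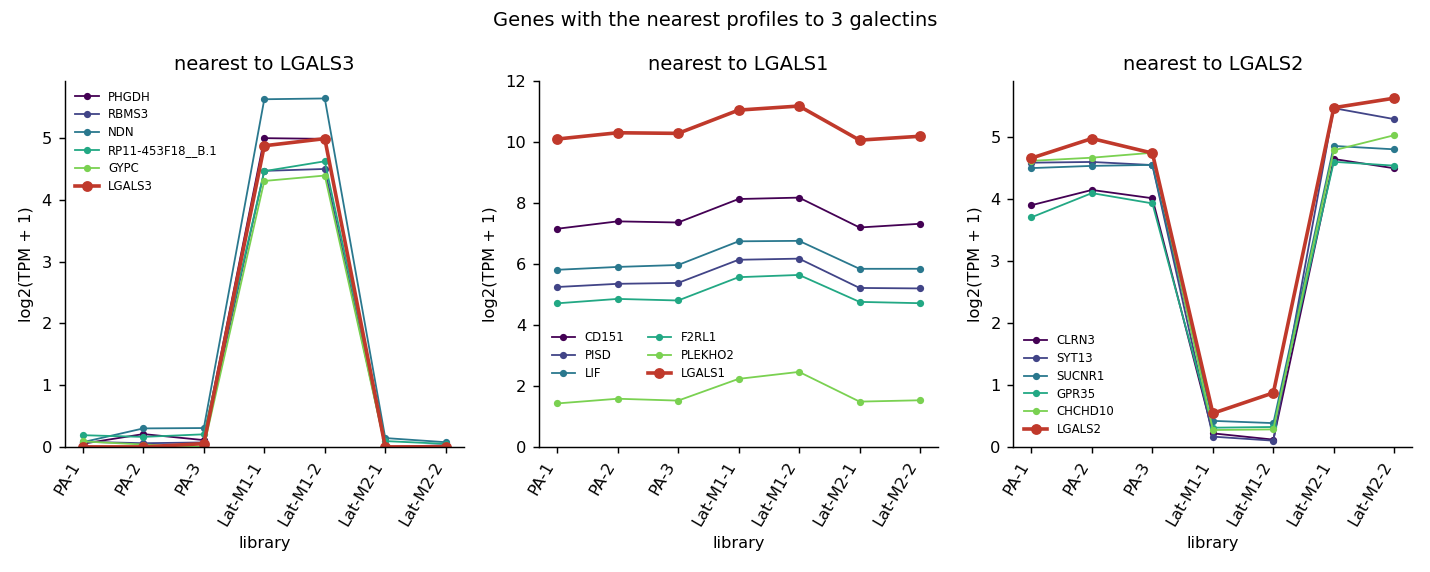
Log2(TPM + 1) (y axis) in the 7 libraries (x axis) of LGALS3, LGALS1 and LGALS2 (thick red lines) and of the 5 genes nearest to each (thin lines). Lines join libraries only to guide the eye; PHGDH, at 31 and 30.7 TPM in Lat-M1, runs closest to LGALS3.

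The genes listed beside LGALS3 were read in every library. In RefSeq order DLGAP5, a mitotic spindle gene, lies after it and averaged 68.5 ± 1.40 TPM (SD, n = 3) in PA, then 58.3 ± 0.911 (n = 2) in Lat-M1, then 70.5 ± 8.32 (n = 2) in Lat-M2. MAPK1IP1L, the nearest listed gene before it, averaged 37.1, 37 and 45.7 TPM. The log2 differences of Lat-M1 from PA were -0.23 ± 0.076 for DLGAP5 (adjusted p = 0.0433) and -0.0035 ± 0.074 for MAPK1IP1L (0.975). Beside LGALS1, PDXP averaged 9.49, 13.8 and 10.2 TPM in PA, Lat-M1 and Lat-M2, and differed by 0.50 ± 0.078 in Lat-M1 (adjusted p = 0.0018). NOL12, on the other side, averaged 7.24, 9.15 and 9.38 TPM and did not pass the test in Lat-M1 (0.31 ± 0.12, adjusted p = 0.0805).

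Galectins bind sugars that other enzymes build, and 6 lists of such enzymes and of partner proteins had 68 tested genes. Of these, 18 passed in Lat-M2 against PA, where 14.9% of all genes passed, but 5 did without Lat-M2-1 (506 of all 16724 genes) and 10 to 11 did without any 1 PA library. The list for N-glycan branching and for galactose or lactosamine addition held 21 genes, not all particular to N-glycans, and 17 were tested. In Lat-M1 against PA 8 were higher and 1 lower, in Lat-M2 against PA 4 were higher and none lower, and in Lat-M2 against Lat-M1 2 were higher and 7 lower. The shares of all genes that passed in these comparisons were 44.8%, 14.9% and 36%, as above. With median ratio scaling these were 7 and 3, 2 and 2, and 2 and 9. MGAT1, which starts the branching, was at 16.8, 19.6 and 18.6 TPM in PA, 40.1 and 41.6 in Lat-M1, and 26.4 and 23 in Lat-M2. It rose in both, by 1.12 ± 0.086 and 0.41 ± 0.086 (adjusted p = 0.0245 in Lat-M2, and 0.131 without Lat-M2-1, 0.0555 without PA-1 and 0.056 without PA-3), with Lat-M2 between the others and no overlap. MAN2A1, the Golgi mannosidase that follows it, differed by 0.97 ± 0.070 in Lat-M1 and averaged 20.9, 42 and 25.2 TPM over the groups. B3GNT3, which extends lactosamine chains, had the pattern of LGALS2, at 2.72, 4.42 and 3.94 TPM in PA, 0.205 and 0.17 in Lat-M1, and 8.81 and 9.81 in Lat-M2. It was lower in Lat-M1 by -1.97 ± 0.17 and rose in Lat-M2 by 1.15 ± 0.17 (adjusted p = 0.00947, and 0.0644 without Lat-M2-1). MGAT5, the branching enzyme best known for making galectin-3 ligands, averaged 18.8, 20.9 and 18.2 TPM and passed in no comparison. B4GALT6, a galactosyltransferase, passed in Lat-M2 (0.34, adjusted p = 0.0391) and lost the call with median ratio scaling (adjusted p = 0.105) and without any 1 library.

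Most of the tested O-glycan core enzymes were lower in Lat-M1. Of 4 tested, 3 fell in Lat-M1, none passed in Lat-M2 against PA, and 3 were higher in Lat-M2 than in Lat-M1. Of all genes 11.6% were lower in Lat-M1 against PA and 16% higher in Lat-M2 against Lat-M1. Median ratio scaling made these counts 4 lower, 2 lower and 3 higher. GCNT1, which makes the core 2 branch, averaged 53.4, 31.1 and 50 TPM in PA, Lat-M1 and Lat-M2, and was lower in Lat-M1 by -0.76 ± 0.054. GCNT4, on the same list but under the minimum for testing, went the other way. It averaged 0.0355 TPM in PA, 1.52 in Lat-M1 (1.07 and 1.97) and 0.102 in Lat-M2. B3GNT6, also listed and untested, averaged 0.369, 0.403 and 0.073 TPM. C1GALT1, the core 1 synthase, averaged 23.8, 19.1 and 27.1 TPM, and its chaperone C1GALT1C1 averaged 57, 45.2 and 63.9. For both, the Lat-M1 libraries lay under all others, though C1GALT1 lost its call against PA without either of them (adjusted p = 0.0576 without Lat-M1-1 and 0.0537 without Lat-M1-2).

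Sialic acid capping, which hinders the binding of galectin-1 where ST6GAL1 adds it, had 8 tested genes of 14 on the list. In Lat-M1 against PA 5 were higher and 1 lower, in Lat-M2 against PA 3 were higher and none lower, and in Lat-M2 against Lat-M1 2 were higher and 3 lower, beside 44.8%, 14.9% and 36% of all genes that passed. With median ratio scaling these were 4 and 2, 2 and none, and 2 and 3. ST6GAL1 was at 0.865, 1.04 and 0.981 TPM in PA, 4.16 and 4.37 in Lat-M1, and 2.72 and 2.26 in Lat-M2. It rose by 1.42 ± 0.13 in Lat-M1 and by 0.83 ± 0.13 in Lat-M2 (adjusted p = 0.0114, and 0.0761 without Lat-M2-1). ST6GALNAC4, which caps O-glycans, again had the LGALS2 order, averaging 5.75, 1.93 and 10.5 TPM. It rose in Lat-M2 by 0.77 ± 0.12 (adjusted p = 0.0104, and 0.0827 without Lat-M2-1). ST3GAL1, which caps core 1, averaged 22.7, 38 and 23.5 TPM and fell from Lat-M1 to Lat-M2 by 0.67 on the log2 scale (adjusted p = 0.000523). ST3GAL2, a related enzyme, averaged 10, 14.4 and 10.2 TPM and was also lower in Lat-M2 than in Lat-M1 (-0.47 ± 0.11, adjusted p = 0.015), a call lost without Lat-M1-1, Lat-M1-2 or Lat-M2-2. SLC35A1, which carries the sialic acid donor into the Golgi, averaged 23.8, 30.1 and 27.7 TPM, and its call in Lat-M2 against PA (0.21, adjusted p = 0.0475) was lost with median ratio scaling (adjusted p = 0.238) and without any 1 library other than Lat-M2-2.

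Of the glycoproteins that galectins bind, 19 on the cell surface were tested. Of these 19 genes 12 were higher and 3 lower in Lat-M1 than in PA, 5 and 1 in Lat-M2, and 3 and 9 in Lat-M2 against Lat-M1, beside 44.8%, 14.9% and 36% of all genes that passed. With median ratio scaling these were 7 and 4, 5 and 4, and 4 and 9. MCAM, an adhesion receptor known to bind galectins, was at 1.18, 1.33 and 1.33 TPM in PA, 11.6 and 12.3 in Lat-M1, and 5.16 and 4.77 in Lat-M2. It rose in Lat-M2 by 1.39 ± 0.096 (adjusted p = 0.000325). The integrin chain ITGAV averaged 280.1, 792 and 350 TPM, and CD44, the hyaluronan receptor, averaged 140.3, 300.3 and 138 TPM. NRP1, a co-receptor of growth factors, averaged 33.6, 12.4 and 31.2 TPM, lowest in Lat-M1. ITGB4, an epithelial integrin chain, averaged 5.09 TPM in Lat-M2, against 0.951 for PA and 0.83 for Lat-M1 (1.65 ± 0.17 over PA, adjusted p = 0.00182), and ALCAM fell in Lat-M2 by 0.53 (adjusted p = 0.003).

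On the log2(TPM + 1) scale, the largest differences among the 68 genes of the 6 lists were those of the matrix genes THBS1 in Lat-M1 against PA and FN1 in both Lat-M2 comparisons. By ratio of means, genes at lower levels differed more: B3GNT3 was 19.7 times lower in Lat-M1 than in PA and 49.7 times higher in Lat-M2 than in Lat-M1, against ratios of 6.75 for THBS1 and 17.1 for FN1. ITGB4 was 5.36 times higher in Lat-M2 than in PA, against 4.68 times lower for FN1. Of 6 tested matrix genes, 3 were higher and 2 lower in Lat-M1 against PA. In Lat-M2 against PA these were 2 and 1, and in Lat-M2 against Lat-M1 2 and 3. Of all genes 44.8%, 14.9% and 36% passed in these comparisons. Median ratio scaling changed the count in Lat-M2 against PA to none higher and 2 lower. THBS1, thrombospondin, was at 181, 179 and 189 TPM in PA, 1216 and 1258 in Lat-M1, and 205 and 189.3 in Lat-M2. FN1, fibronectin, a ligand of galectin-1 and galectin-3, was at 89.1, 90.3 and 95.5 TPM in PA, 317 and 350.3 in Lat-M1, and 20.6 and 18.6 in Lat-M2. Its groups did not overlap, with Lat-M1 above and Lat-M2 below PA, and it fell in Lat-M2 by 2.17 on the log2 scale (adjusted p = 1.04e-05). NID1, nidogen, averaged 118, 85 and 141 TPM and LAMC1, a laminin chain, 214, 342 and 250.1. Both rose in Lat-M2 (adjusted p = 0.0369 and 0.0468), calls that were lost with median ratio scaling (0.072 and 0.144) and without any 1 library other than Lat-M2-2.

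Inside the cell, LGALS3 and LGALS8 mark broken lysosomes, and 14 of 16 genes of that response were tested. In Lat-M1 against PA 8 were higher and none lower, in Lat-M2 against PA 2 and none, and in Lat-M2 against Lat-M1 1 and 5, where 44.8%, 14.9% and 36% of all genes passed in either direction. Median ratio scaling gave 5 higher and 2 lower, 1 and 2, and 2 and 6. TRIM16 encodes a ubiquitin ligase that works with galectin-3 at damaged membranes. It was at 22.8, 23.5 and 23.8 TPM in PA, 54 and 57.1 in Lat-M1, and 23.5 and 20.7 in Lat-M2. OPTN, an autophagy receptor, averaged 76.8, 159 and 73.6 TPM, and TFEB, a regulator of lysosomal genes, averaged 1.71, 5.70 and 2.51. All 3 were lower in Lat-M2 than in Lat-M1 (adjusted p = 2.62e-05, 0.000106 and 0.00332). YOD1, a deubiquitinase of the same response, averaged 24.3, 42.8 and 33.7 TPM, higher in Lat-M1 by 0.79 ± 0.060 and in Lat-M2 by 0.46 ± 0.060 (adjusted p = 0.006). CALCOCO2, the receptor that LGALS8 recruits, averaged 27.1, 28.4 and 26.8 TPM and passed in no comparison.

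**Figure D4:**
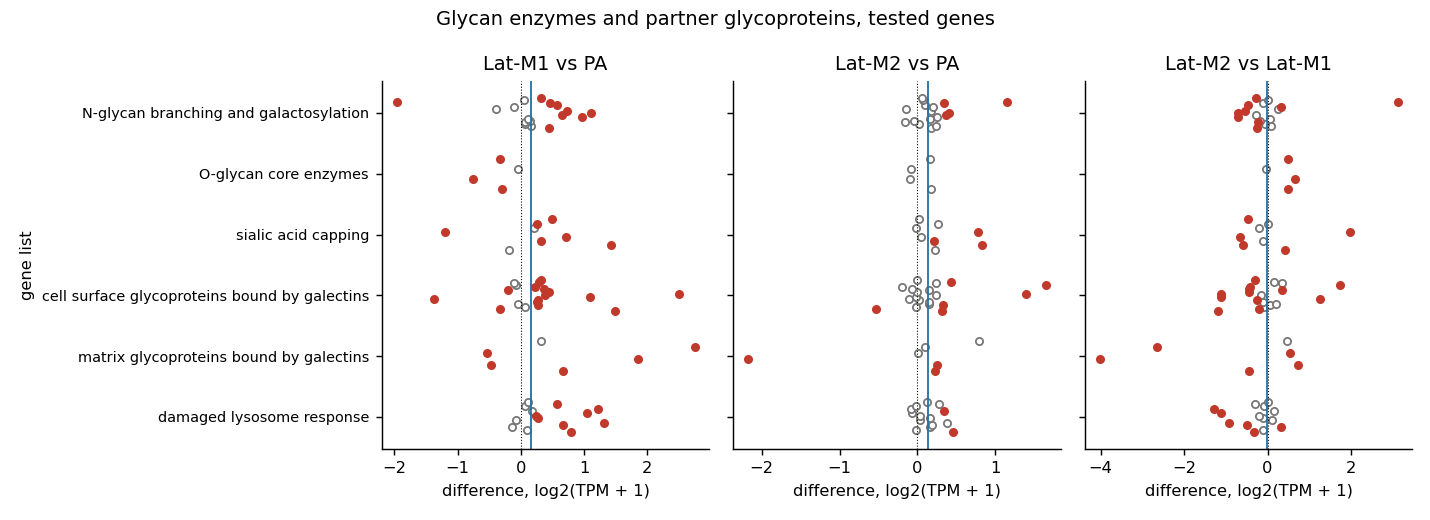
Log2(TPM + 1) differences (x axis, a separate scale per panel) of the tested genes of 6 lists (y axis) in 3 comparisons; red points passed the adjusted p threshold, open points did not, and the blue line is the median of all tested genes. The tested O-glycan core enzymes lie left of the median in Lat-M1, where 3 of 4 passed, and FN1 is the leftmost matrix point in both Lat-M2 panels.

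Galectins are also made by other cells, so markers of these were read in the same libraries. Of the 8 listed leukocyte markers, CD68, a lysosomal protein of many cells, held most of the sum, which was 47.9 to 51.2 TPM in PA, 19.8 to 20.9 in Lat-M1 and 42.8 to 45.1 in Lat-M2. CD68 itself was at 45.6 to 48.2 TPM in PA, 14.1 and 15.5 in Lat-M1, and 39.7 to 41.8 in Lat-M2. ITGAM, an integrin chain of myeloid cells, went the other way, at 1.36 to 1.84 TPM in PA, 4.74 in each Lat-M1 library, and 2.21 to 2.54 in Lat-M2, and was higher in Lat-M1 than in PA by 1.13 ± 0.13 on the log2 scale. PTPRC and LYZ, which define leukocytes, were at no more than 0.0121 and 0.0493 TPM in any library. The 9 fibroblast and pericyte markers summed to 5.19 to 5.55 TPM in PA, 21.9 to 23.8 in Lat-M1 and 6.93 to 8.87 in Lat-M2. COL1A1 held most of the Lat-M1 sum, at 19.2 and 20.6 TPM, while COL1A2, DCN, LUM and THY1 stayed at or below 0.0364 TPM everywhere. RGS5, a pericyte marker and the largest part of the PA sum, averaged 3.71 TPM in PA, 2.02 in Lat-M1, then 4.29 in Lat-M2, and PDGFRB averaged 0.387, 0.843 and 0.272. The part of these cells in the galectin levels was not tested. The 4 listed endothelial markers summed to at most 0.0853 TPM, with CDH5 at 0 in all 7 libraries. Of 10 renal carcinoma and epithelium markers 8 were tested. In Lat-M1 against PA 3 were higher and 2 lower. In Lat-M2 against PA 3 were higher and none lower, and in Lat-M2 against Lat-M1 3 were higher and 1 lower. Of all genes 44.8%, 14.9% and 36% passed in these comparisons. With median ratio scaling the marker counts were 1 and 3, 2 and 1, and 3 and 2. PAX8, which marks renal cells, was at 65.6 to 87.9 TPM, and CA9, the usual marker of clear cell carcinoma, was at no more than 0.156. NNMT, a methyltransferase high in this carcinoma, averaged 41.9, 153 and 48.2 TPM over PA, Lat-M1 and Lat-M2. The epithelial genes KRT8 (128, 91.9 and 193 TPM) and EPCAM (14.5, 10.1 and 18.2) were, as LGALS2 and LGALS4 were, lowest in Lat-M1 and highest in Lat-M2. Their log2 differences were -0.47 ± 0.11 and -0.48 ± 0.069 in Lat-M1, and 0.59 ± 0.11 (adjusted p = 0.0164, and 0.117 without Lat-M2-1) and 0.31 ± 0.069 (adjusted p = 0.029, and 0.0776 with median ratio scaling) in Lat-M2. Without Lat-M1-1 the KRT8 difference in Lat-M1 did not pass, and EPCAM in Lat-M2 did not pass without any 1 library other than Lat-M2-2. KRT18 averaged 278, 263 and 421 TPM and rose in Lat-M2 by 0.60 ± 0.059 (adjusted p = 0.00169). Of 11 other galectin genes 4 were listed: the galectin-related gene LGALSL at 4.22 to 5.95 TPM, LGALS9B as given above, and LGALS7 and its near copy LGALS7B at 0 in most libraries and no more than 0.270.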

How the data were processed

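RNA sequencing libraries of 769-P cells (3 PA, 2 Lat-M1, 2 Lat-M2) were grouped by their titles. The authors deposited TPM per gene for each library, a unit read from the values, which sum to 1000000 per library. TopHat2 2.2.4 and hg19 are named in the submitters' processing notes; quantifier, annotation and filters are not given in the sources used here. TPM keeps no read totals, so depth is unknown and no counting intervals are given; 16136 to 16872 genes reached 1 TPM in a library.

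Log2(TPM + 1) was fitted with limma 3.58.1 (R 4.3.3, trend and robust options) in 1 model of the 3 groups for 16724 genes, those averaging 1 TPM or more over the libraries, with Benjamini-Hochberg adjustment at 0.05 over all of them. Errors are standard errors unless marked SD; folds are ratios of mean TPM. The scripts were tested on simulated data. Members and gene lists were chosen with earlier results of these data known. Members get no p in Lat-M1 against PA, nor LGALS3 in Lat-M2 against Lat-M1. Named were all members, up to 3 called genes with the smallest p of each list with at least 3 calls in a comparison, the 5 genes nearest to LGALS3 and to LGALS1, and the genes beside both. Other list genes (MGAT5, GCNT4, B3GNT6, CALCOCO2, the markers) were named after their values were seen. For 161 symbols with several identifiers the highest entry was used. Gene types came from GENCODE v29 (30947 identifiers matched) and promoters and gene order from RefSeq GRCh38.p14, which gave 8 entries for 6 of 7 members; LGALS1 has none. Alternatives were another added constant, no minimum or a minimum of 5 TPM, 3 other scalings, only the groups compared, a replicate block and leaving out each library. Deviations from the group means were at most weakly correlated between libraries of the same last number (r from -0.082 to 0.0312 over 6 pairs). In groups of 2 libraries these deviations mirror each other, so the pairs are not separate checks.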

Additional observations from a re-analysis of the deposited data

How the results depend on the processing

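No member reversed its direction past the threshold under any alternative run. The number of galectins past the threshold stayed at 6 in Lat-M1 against PA, except 5 with the 5 TPM minimum, where LGALS4 was not tested. Leaving out each library gave 1 to 3 in Lat-M2 against PA and 3 to 4 in Lat-M2 against Lat-M1. With the replicate block, the counts were 6, 2 and 4; the libraries share only a number and not a known source. Under the block LGALS3BP lost its call in Lat-M2 against PA, as did MGAT1 (adjusted p = 0.0692), B4GALT6, SLC35A1, LAMC1, NID1 and EPCAM, and C1GALT1 lost its call in Lat-M1 against PA (0.0661). LGALS2 and LGALS3BP were the members that lost calls in Lat-M2 against PA, LGALS8 gained one without Lat-M2-2, and LGALS8 lost its call in Lat-M2 against Lat-M1 without Lat-M1-2. Median ratio scaling moved the summed galectin TPM of Lat-M1 from 2461 to 2312. The log2 ratio of LGALS3 to LGALS1 in Lat-M1 was -6.18 with the added constant and -6.23 with none. Of the 68 tested genes on the 6 lists, 18 passed in Lat-M2 against PA, and alternatives chosen after seeing the data gave 11 with no minimum, 30 with protein-coding genes alone, 8 with the replicate block and 5 to 26 when each library was left out, the lowest without Lat-M2-1. Leaving out each library gave 34 to 48 in Lat-M1 against PA (46 with all) and 30 to 40 in Lat-M2 against Lat-M1 (40 with all). Over all genes the count in Lat-M2 against PA was 2494, and it was 1532 with no minimum and 1518 with only both groups. It was 3742 with protein-coding genes alone and 943 with the replicate block. Without PA-1, PA-2 or PA-3 it was 1248, 1138 and 1276. In Lat-M1 against PA it was 7499, and 4721 without Lat-M1-2; in Lat-M2 against Lat-M1 it was 6022, and 3975 and 3838 without Lat-M1-1 and Lat-M1-2. Leaving out either Lat-M2 library moved the median log2 difference of all tested genes in Lat-M2 against PA, in opposite directions. The median was 0.085 without Lat-M2-1 and 0.19 without Lat-M2-2, against 0.14 with both. The cause of these moves was not tested. Values near 0 TPM cannot be given a detection limit here.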
